A study of Sus scrofa with 6 samples.

Results

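Nuclear-encoded genes of oxidative phosphorylation, the mitochondrial system that makes ATP from the oxidation of nutrients, were followed in cultured pig (Sus scrofa) granulosa cells with and without heat. The members were a list of 49 subunit genes of respiratory complexes I to V, found in the gene table by exact symbol. Of these, 44 matched 1 of the 35670 identifiers, and all 44 had enough reads to be tested. NDUFB3, NDUFS7, COX6B1, ATP5F1B and ATP5PD matched no identifier and were not analysed here. By complex, 19 of 21 listed genes of complex I were measured, 4 of 4 of complex II, 6 of 6 of complex III, 7 of 8 of complex IV and 8 of 10 of complex V.

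Granulosa cells are the somatic cells around the oocyte. They were aspirated from small follicles, grown to confluency in medium with serum, and kept for 6 h at 37 °C (control, n = 3) or at 42 °C (heat, n = 3). No other treatment or genotype separates the groups, and stranded mRNA libraries were read as gene counts. Each group's 3 samples are termed biological replicates, with no word on shared or separate animals and cultures, so p-values measure only the spread between these samples.

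Complexes I and II take electrons from NADH and succinate, complex III passes them to cytochrome c, and complex IV passes them to oxygen. Complexes I, III and IV pump protons, and complex V, the ATP synthase, uses the proton gradient to make ATP. Complexes I, III, IV and V are built from subunits of both the nuclear and the mitochondrial genome, whereas complex II is wholly nuclear-encoded. In the ovary, granulosa cells use mitochondria for energy and for the first step of steroid hormone synthesis.

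Likeness within a group was uneven, which bears on every result. Totals lay between 18711440 and 29606378 counts. Across tested genes, Pearson's correlation of log2 CPM (counts as a share of each library's total, scaled by TMM factors) was 0.990 between control 2 and control 3 and 0.991 between heat 1 and heat 2. For control 1 the values against control 2 and 3 were 0.901 and 0.905. For heat 3 those against heat 1 and 2 were 0.916 and 0.909. Control 1 against heat 3 gave 0.920, so each of them was closest to the other, across the groups. Several defining granulosa markers were near 0: the FSH receptor gene FSHR had between 0 and 49 reads in a library, INHA between 0 and 7, and AMH between 0 and 6. FOXL2 and CYP19A1 matched no identifier. Of 15 granulosa markers 7 were tested, with a summed level of 291 to 618 CPM in controls and 445 to 565 CPM in heat. Of these, 1 (KRT8) was called higher in heat, against 6.71% of all tested genes, with 4.32% called lower. That call ended with DESeq2 size factors (edgeR adjusted p = 0.0502) and with control 2, control 3, heat 1 or heat 2 left out (0.158 to 0.176). Stromal markers (7 of 8 tested, led by the collagens COL1A2 and COL3A1) summed to 59101, 7420 and 6696 CPM in controls and to 87900, 79364 and 28073 CPM in heat, with 0 called. Theca markers (3 of 7 tested) summed to 6.11 to 26.6 CPM in controls and 27.8 to 78.4 CPM in heat, with INSL3 at 0 in every library. Endothelial markers (2 of 7 tested) summed to 17.1 to 31.5 and 11.5 to 13.0 CPM, with ERG called lower and CDH5 at 0. The ERG call ended with library totals (edgeR adjusted p = 0.0524) and with control 2, control 3, heat 1 or heat 2 left out (0.157 to 0.171). Leukocyte markers (3 of 8 tested) summed to 3.205 to 57.6 and 1.22 to 4.29 CPM, with LYZ called lower and CD3E at 0. The groups overlapped for LYZ, and its call ended with no filter (edgeR adjusted p = 0.118), with the replicate block (0.206), with limma-voom (0.167), and with any library other than control 1 left out (0.0742 to 0.158). PTPRC, which marks leukocytes, had 35 and 64 reads in control 2 and 3 and 0 in the other libraries. CD79A went the other way, with 5, 5 and 3 reads in controls and 33, 48 and 8 in heat. The other tested leukocyte markers, CD68 and CD14, had log2 fold changes of -0.77 and 0.08 and were not called. None of 5 erythrocyte markers was tested, and HBB had at most 1 read in a library. The part of these markers in the results below was not tested, and in bulk RNA fewer cells of a type cannot be told apart from less RNA per cell.

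The members differed together between libraries, and libraries of the same temperature were far apart. Summed, they reached 1109, 2443 and 2544 CPM in controls (given here and below in the order 1, 2, 3) and 943, 896 and 2276 CPM in heat (likewise). Control 1 therefore stood beside heat 1 and heat 2, and heat 3 stood beside control 2 and control 3. The median member was 1.23 log2 units higher in control 2 than in control 1, and 43 of 44 members were higher there, the exception being NDUFA10. Between heat 1 and heat 3 the median difference was 1.29 log2 units, and 43 of 44 members were higher in heat 3, the exception being SDHA. Across temperatures, the size and sign of the median difference varied with the pair. From control 2 and control 3 to heat 1 and heat 2 it lay between -1.59 and -1.51 log2 units, with 1 to 3 of 44 members higher in heat. From control 1 to heat 3 it was 1.19, with 43 of 44 members higher in heat 3. The other 4 pairs lay between -0.29 (control 1 to heat 2, 15 of 44 higher) and -0.16 (control 1 to heat 1, 16 of 44 higher). Over all tested genes, 51.1% were higher in control 2 than in control 1 and 50.5% were higher in heat 3 than in heat 1, with medians of 0.03 and 0.01. The summed stromal markers, led by collagens, were highest in the libraries where the members were lowest, control 1, heat 1 and heat 2. TCF21 of that list went otherwise, at 0.467, 0.437 and 0.397 CPM in controls and 1.25, 1.12 and 1.28 CPM in heat. Theca markers were also lowest in control 2 and control 3, with sums of 26.6, 6.11 and 6.45 CPM in controls and 78.4, 74.5 and 27.8 CPM in heat. A link between any of these markers and the members was not tested.

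**Figure D1:**
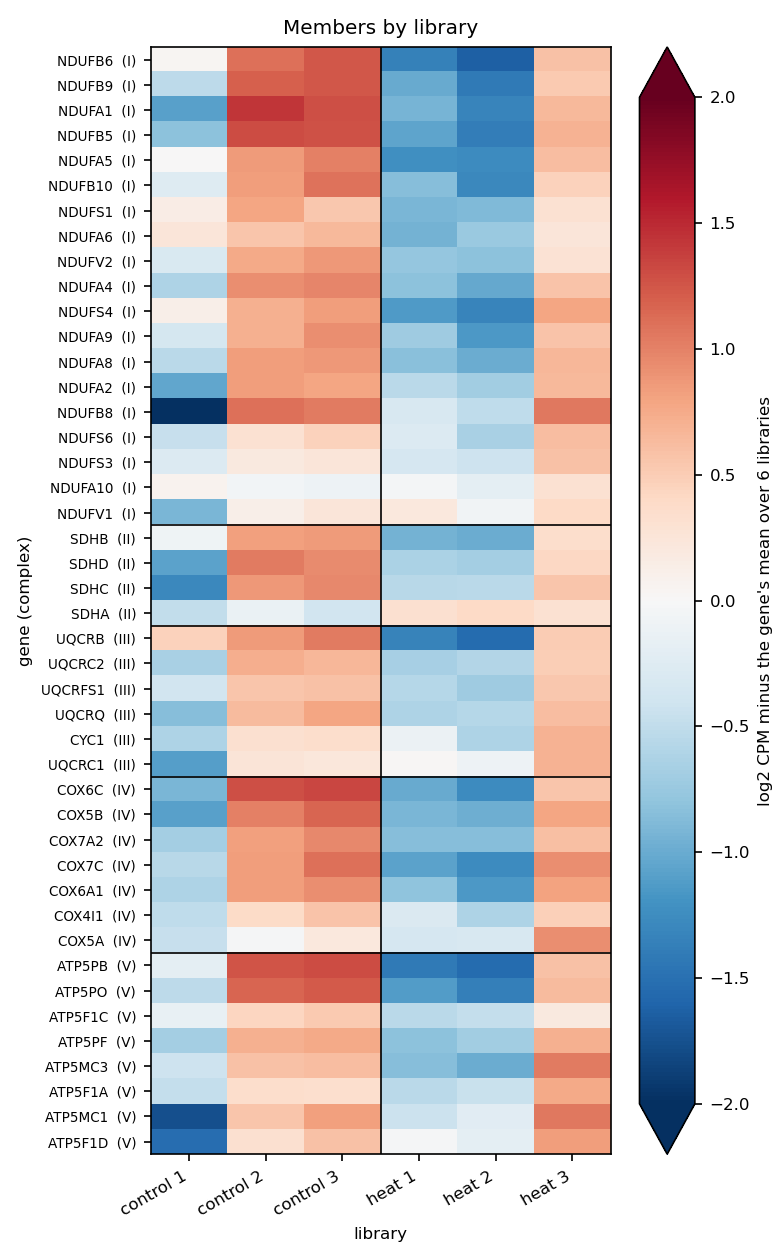
Level of each of the 44 measured members (rows, grouped by complex and ordered by fold change) in the 6 libraries (columns), as log2 CPM minus the gene's own mean. Control 2, control 3 and heat 3 are red and control 1, heat 1 and heat 2 are blue for most members, while SDHA is blue in the controls and red in heat.

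Control 1 and heat 1 held the highest value for 0 members, and heat 2 for SDHA alone. Control 3 held the highest value for 25 members, heat 3 for 11 and control 2 for 7. The lowest value was in heat 2 for 25 members, in control 1 for 13 and in heat 1 for 6. Over all tested genes each library was the highest for 12.4 to 19.6% and the lowest for 11.9 to 22.1%. The ratio of a member's highest to its lowest library ran from 1.41 (NDUFA10) to 11.2 (NDUFB8), with a median of 3.84 against 3.40 over all tested genes. It was under 2 for 2 members, NDUFA10 and SDHA, and over 5 for 13.

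Heat was compared with control to ask which of these genes respond to temperature. None of the 44 members passed the test in either direction, against 11% of the 14242 genes tested (edgeR quasi-likelihood test, Benjamini-Hochberg adjusted p under 0.05 over all tested genes). Higher calls made up 6.71% of tested genes and lower calls 4.32%. The lowest adjusted p among members was 0.127, for SDHA, and 1 member had an unadjusted p under 0.05, or 2.27% against 33.9% of tested genes. DESeq2 and limma-voom also called 0 members, with 8 and 6 at an unadjusted p under 0.05, against 12.6% and 5.14% of genes called lower and 14.9% and 7.41% higher. The members' count was also 0 in edgeR with DESeq2 size factors (5.19% of genes lower, 5.77% higher), upper quartile factors (4.84% and 6.58%), library totals (2.92% and 11.1%), no filter (3.3% and 6.24%) and a 10 CPM filter (5.18% and 6.96%). With the replicate number as a block, 4 members were lower and 0 higher, against 9.13% and 14.8% of genes. The groups did not overlap for 2 of 44 members, or 4.55%, against a background of 37.8%: heat was above every control for SDHA (background 20.9%) and below every control for NDUFA6 (background 16.8%). The median log2 fold change, heat minus control, was -0.67 over members and 0.05 over all tested genes, and 36 members had a negative value (background 47.9%).

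**Figure D2:**
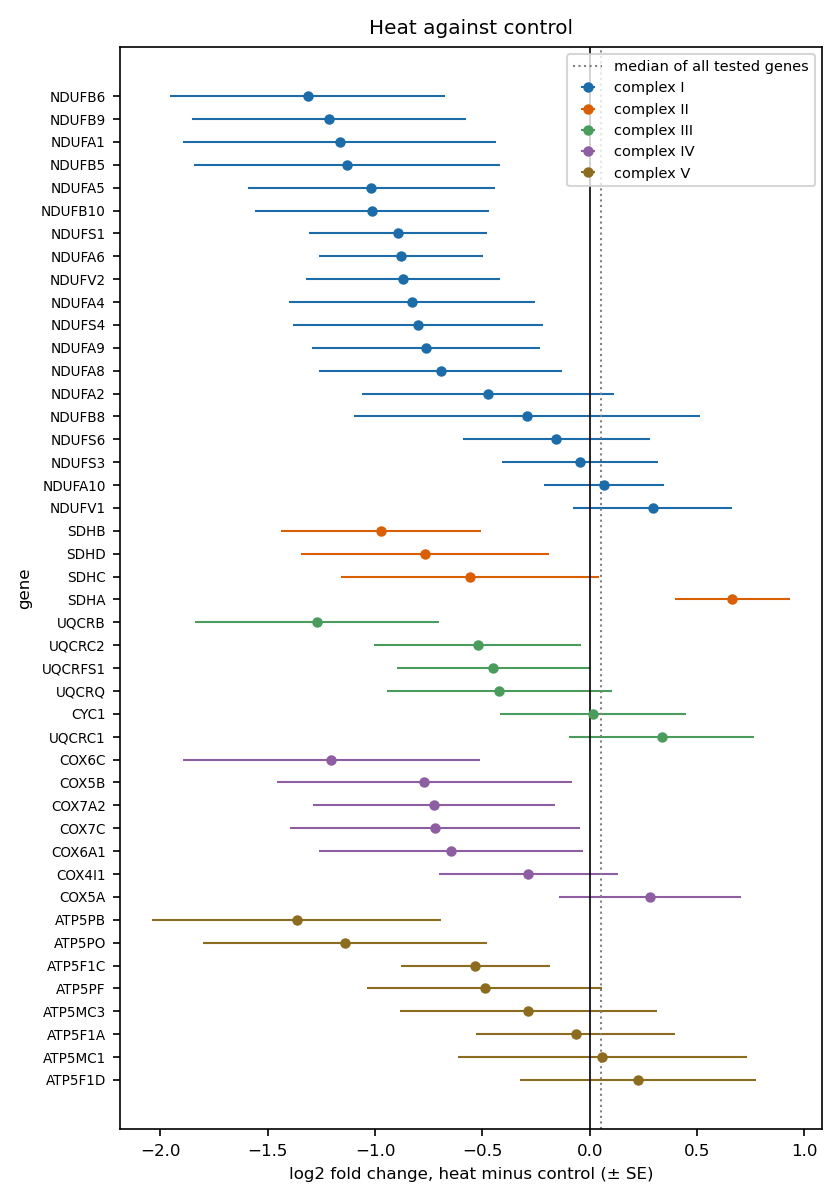
Log2 fold change (heat minus control, ± SE of the edgeR test) of each member, coloured by complex, with the median of all tested genes dotted. Values run from -1.37 for ATP5PB to 0.66 for SDHA, and none passed the test.

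Depth did not set the same limit for every member. The lowest count was 24 reads, for ATP5MC1 in control 1, and the highest was 11699, for ATP5F1A, with over 100 reads in every library for 34 members. On data simulated with the spread of these libraries, 50 random genes of 14242 were changed at each fold. The test recovered 0% of those changed 2-fold and 46% of those changed 4-fold. Far fewer genes were changed there than were called in the data, which makes the adjusted p stricter, and each gene varied independently. These shares therefore do not give the smallest change that could be called for the members, which differed together between libraries.

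By complex, the summed levels repeated the order of the libraries rather than that of the groups. Complex I members summed to 331, 703 and 721 CPM in controls and to 232, 207 and 570.0 CPM in heat. Complex II members summed to 76.1, 198 and 192 CPM in controls and 102, 104 and 165 CPM in heat. In complex III the sums were 138, 269 and 278 CPM against 119, 110.1 and 260.3 CPM. Complex IV members gave 178, 479 and 536 CPM against 172, 151 and 463 CPM. The 8 members of complex V gave 386, 795 and 817 CPM against 319, 323 and 818 CPM. The groups overlapped for all 5 complexes, and the difference of the means was smaller than the larger SD for complexes II to V. For complex I it was not: 585 ± 220.3 CPM in controls and 336 ± 203 CPM in heat (SD, n = 3).

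**Figure D3:**
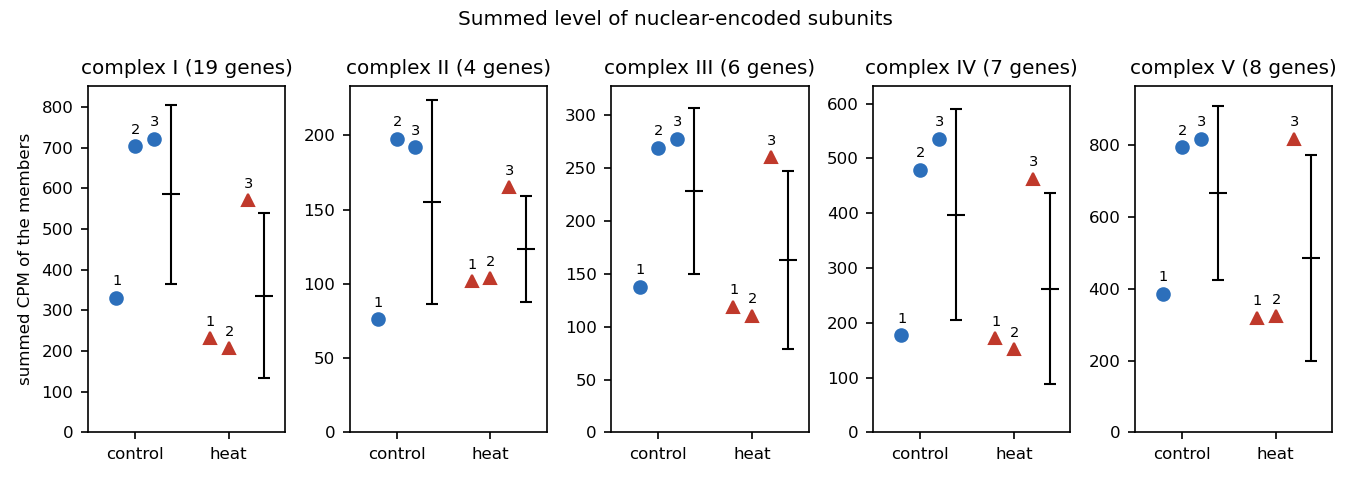
Summed CPM of the measured members of each complex in control (circles) and heat (triangles) libraries, numbered by replicate, with mean ± SD (n = 3) beside them. Control 1 lies near heat 1 and heat 2, and heat 3 near control 2 and control 3, in every panel.

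Complex I, the NADH dehydrogenase, had a median log2 fold change of -0.83 over its 19 listed members, 17 of them negative (background 47.9%). The 19 include NDUFA4, whose own value is that median. All sums, medians and ratios by complex count NDUFA4 under complex I and not under complex IV. NDUFS1, its iron-sulfur subunit of the electron entry arm, stood at 62.8, 97.9 and 82.5 CPM in controls and at 30.1, 30.8 and 69.8 CPM in heat. Heat 3 was above control 1, so the groups overlapped, and the difference of -0.89 ± 0.41 (SE) did not pass (edgeR adjusted p = 0.169). NDUFB6, an accessory subunit of the membrane arm, had the most negative value of the complex, -1.31 ± 0.64 (edgeR adjusted p = 0.186). It stood at 9.35, 19.5 and 21.3 CPM in controls and 3.54, 2.93 and 13.6 CPM in heat. Heat 3 was again inside the control range.

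NDUFA6, an accessory subunit, was the member whose heat libraries all lay below the controls. Its levels were 15.6, 19.5 and 20.8 CPM in controls and 6.88, 7.86 and 15.6 CPM in heat. The nearest libraries, control 1 and heat 3, differed by -0.01 log2 units, and the change of -0.88 ± 0.38 did not pass (edgeR adjusted p = 0.149). NDUFA6 and NDUFB8 were named after their values were seen, as was NDUFA10. NDUFB8, another accessory subunit, had 3.00 CPM in control 1 against 33.6 and 32.0 CPM in control 2 and 3, and 12.5, 11.02 and 32.4 CPM in heat. Control 1 was the lowest library there by a wide margin.

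NDUFV1, the flavoprotein that receives electrons from NADH, and NDUFA10 had positive values. NDUFV1 stood at 6.08, 12.4 and 13.6 CPM in controls and 13.3, 10.9 and 15.2 CPM in heat, a difference of 0.29 ± 0.37 (edgeR adjusted p = 0.597). NDUFA10 was nearly level, between 12.1 and 17.1 CPM in all 6 libraries. NDUFS3, a core subunit of the peripheral arm, ranged from 13.3 to 18.8 CPM in controls and from 12.0 to 24.1 CPM in heat. NDUFA4, named for complex I and since assigned to complex IV, followed the common order, with 20.8, 60.9 and 62.6 CPM in controls and 18.0, 15.7 and 47.5 CPM in heat. The 4 core subunits measured (NDUFS1, NDUFS3, NDUFV1 and NDUFV2) had a median highest-to-lowest ratio of 2.87, and the 15 other members listed for complex I had one of 4.44.

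Complex II, succinate dehydrogenase, held the member that departed most from the rest. SDHA, the flavoprotein subunit that oxidises succinate, stood at 27.5, 35.4 and 29.7 CPM in controls and at 48.3, 50.8 and 47.7 CPM in heat. All 3 heat libraries lay above all 3 controls, and control 1 and heat 3 lay with their own groups. The log2 fold change was 0.66 ± 0.27, which did not pass (edgeR adjusted p = 0.127). Its value was positive in every fit run, from 0.56 to 0.74 with each library left out. SDHA lies on chromosome 16 at 79838442 to 79862956 (Sscrofa11.1, RefSeq).

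SDHB, the iron-sulfur subunit that binds SDHA, went the common way, with 20.4, 38.5 and 39.1 CPM in controls and 11.3, 10.9 and 27.7 CPM in heat (-0.97 ± 0.47, edgeR adjusted p = 0.181). The level of SDHA over that of SDHB, a ratio that does not depend on scaling, was 1.35, 0.921 and 0.760 in controls and 4.26, 4.67 and 1.72 in heat. It was higher in every heat library than in any control, and this pair was chosen after the values were seen, so no test is given. Over the membrane anchors the groups overlapped, with heat 3 below control 1. SDHA over SDHC was 2.11, 0.606 and 0.480 in controls and 2.23, 2.31 and 1.02 in heat. SDHA over SDHD was 1.81, 0.542 and 0.485 in controls and 2.36, 2.54 and 1.12 in heat. SDHB lies on chromosome 6 at 75648362 to 75678111. The membrane anchors SDHC and SDHD were lowest in control 1. SDHC stood at 13.0, 58.4 and 61.8 CPM in controls and 21.6, 22.0 and 46.9 CPM in heat. SDHD stood at 15.2, 65.3 and 61.2 CPM in controls and 20.5, 20.0 and 42.6 CPM in heat. For both anchors control 1 was below every heat library and the other controls were above all of them.

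Complex III, the cytochrome bc1 complex, had a median log2 fold change of -0.43 over 6 members. UQCRFS1, the Rieske iron-sulfur protein, stood at 42.9, 82.6 and 84.5 CPM in controls and 37.7, 34.2 and 82.0 CPM in heat (-0.45 ± 0.45, edgeR adjusted p = 0.497). CYC1, the cytochrome c1 subunit, stood at 8.75, 16.8 and 17.2 CPM in controls and 12.4, 8.79 and 21.9 CPM in heat, and its sign changed with the scaling. The structural core protein UQCRC2 ranged from 26.8 to 69.4 CPM in controls and from 26.5 to 58.9 CPM in heat, so the groups spanned nearly the same range.

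UQCRB, a small ubiquinone-binding subunit, and UQCRC1, the other core protein, marked the ends of the complex. UQCRB stood at 42.6, 55.7 and 63.1 CPM in controls and 12.2, 10.6 and 44.0 CPM in heat (-1.27 ± 0.57, edgeR adjusted p = 0.158). Heat 3 lay just above control 1, and the other heat libraries were well below. UQCRC1 stood at 10.2, 26.4 and 25.6 CPM in controls and 22.3, 20.6 and 35.5 CPM in heat (0.33 ± 0.43, edgeR adjusted p = 0.603). Here only control 1 was low.

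Complex IV, cytochrome c oxidase, takes its catalytic subunits from the mitochondrial genome, and the 7 members measured surround them. Their median log2 fold change was -0.72. COX6C was the most negative, with 24.0, 110.3 and 114 CPM in controls and 22.3, 18.8 and 66.4 CPM in heat (-1.20 ± 0.69, edgeR adjusted p = 0.2495). Control 1 was close to heat 1. COX5B gave 14.8, 63.2 and 70.5 CPM in controls and 16.6, 15.99 and 54.4 CPM in heat, with the lowest value in a control. COX4I1, the largest nuclear-encoded subunit, varied less, at 42.9, 79.6 and 91.0 CPM in controls and 50.2, 39.9 and 85.1 CPM in heat. COX5A was the member of this complex with a positive value, 0.28 ± 0.42, and heat 3 was high: 24.8, 33.7 and 39.7 CPM in controls against 27.0, 27.4 and 64.8 CPM in heat. COX6A1, COX7A2 and COX7C had values between -0.72 and -0.65.

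Complex V, the ATP synthase, had a median log2 fold change of -0.39 over 8 members. A difference between its parts was not tested. ATP5F1A, the alpha subunit of the catalytic head, stood at 152, 269.8 and 267 CPM in controls and 146, 154 and 358 CPM in heat, a difference of -0.07 ± 0.46. The 3 head and central stalk members, ATP5F1A, ATP5F1C and ATP5F1D, had values between -0.53 and 0.22. The peripheral stalk, which holds the head still while the rotor turns, was represented by ATP5PB, ATP5PF and ATP5PO, with values between -1.37 and -0.49. These ranges overlapped, as ATP5F1C (-0.53) was more negative than ATP5PF (-0.49). ATP5PB had the most negative value of all members, -1.37 ± 0.67 (edgeR adjusted p = 0.1898). It stood at 45.0, 123 and 127 CPM in controls and 19.2, 17.7 and 77.5 CPM in heat, so that heat 3 lay above control 1.

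ATP5PO, which joins the stalk to the head, stood at 35.9, 116 and 121 CPM in controls and 23.8, 20.0 and 80.2 CPM in heat (-1.14 ± 0.66, edgeR adjusted p = 0.253). Within a library, the level of ATP5F1A over that of ATP5PB was 3.38, 2.19 and 2.10 in controls and 7.59, 8.70 and 4.61 in heat. The groups did not overlap in this ratio, which was also chosen after the values were seen and is given without a test. It holds the most negative member, ATP5PB, and ratios of other head and stalk members were not computed. It therefore describes this pair and not the head and stalk as a whole. ATP5MC1 and ATP5MC3, separate genes for the c subunit of the membrane rotor, had values of 0.06 ± 0.67 and -0.29 ± 0.60. ATP5MC1 was at 1.602 CPM in control 1 and between 4.04 and 11.3 CPM in the other libraries. ATP5MC3 was at 37.7, 75.5 and 77.1 CPM in controls and 27.8, 25.1 and 103 CPM in heat, with the highest and the lowest values in the same group.

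The outcome rested on which libraries were compared. Without heat 3 the edgeR test called 14 of 44 members lower and 0 higher, against 17.7% and 18.4% of tested genes in that fit. The 14 were NDUFA5, NDUFA6, NDUFB6, NDUFB9, NDUFB10, NDUFS1, NDUFS4 and NDUFV2 of complex I, SDHB of complex II, UQCRB of complex III, COX7C of complex IV, and ATP5PB, ATP5PO and ATP5MC3 of complex V. Among them UQCRB had the lowest edgeR adjusted p, 0.00897, at -2.25 ± 0.27 on the log2 scale. With control 1 left out instead, 0 members were called, against 12.3% of genes lower and 19.6% higher, and 13 members had an unadjusted p under 0.05. Leaving out control 2, control 3, heat 1 or heat 2 gave 0 members called, and in those fits 0 to 7 genes of the whole table passed, none of them lower (0.0475% higher without heat 1 and 0.0406% without heat 2). The median log2 fold change of the members ran from -1.31 without heat 3 to -0.39 without heat 2.

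Without control 1 and heat 3 together, a comparison added after the data were seen, 41 members were called lower and SDHA was called higher. In that fit 38.4% of tested genes were called lower and 41.2% higher, and its spread came only from the closely alike pairs. The median log2 fold change of the members was -1.57 there. With control 2 and 3 summed as 1 sample and heat 1 and 2 summed as 1 sample, 0 members were called, the median was -0.22, and 2 genes passed in the whole table, both higher (0.0129%).

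**Figure D4:**
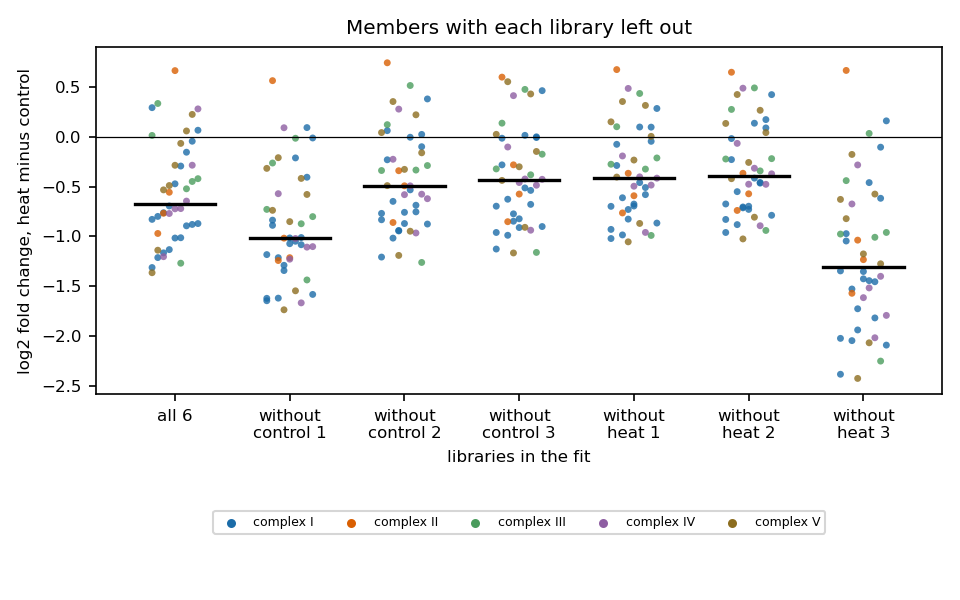
Log2 fold change of every member (points, coloured by complex) in the fit of all 6 libraries and in each fit without 1 library, with the median as a bar. The medians lie between -1.31 and -0.39, and the uppermost point in each column is SDHA.

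Transcripts of the mitochondrial genome, which encodes the partner subunits, did not follow the order of the nuclear members. The 13 mitochondrially encoded subunit genes took 17.3 ± 6.98% of counts in controls and 6.82 ± 1.56% in heat, and the nuclear members 0.203 ± 0.100% and 0.146 ± 0.0914% (SD, n = 3). Of the 13 mitochondrial genes, 7 were called lower and 0 higher, against 4.32% and 6.71% of all tested genes. ND1 of complex I stood at 10934, 2902 and 2635 CPM in controls and 739, 591 and 574 CPM in heat. The complex III gene CYTB stood at 7886, 3591 and 2983 CPM in controls and 845, 689 and 440 CPM in heat. The log2 fold changes were -3.11 ± 0.69 for ND1 (edgeR adjusted p = 0.0386) and -2.87 ± 0.58 for CYTB (0.0339). Both calls ended when control 2, control 3, heat 1 or heat 2 was left out, with edgeR adjusted p-values between 0.133 and 0.159. COX1, with the highest level of the 13 in every library, was not called (-0.94 ± 0.68, edgeR adjusted p = 0.350). It stood at 118839, 52536 and 44116 CPM in controls and 46607, 41962 and 23672 CPM in heat, so the groups overlapped. Control 1 was the highest library for all 13 genes, whereas it was among the lowest for the nuclear members.

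The summed CPM of mitochondrial over nuclear subunits was highest in control 1 and lowest in heat 3 in each of the 4 complexes of mixed origin. In complex I it was 424, 93.6 and 70.5 in controls and 103, 96.8 and 25.8 in heat. The complex IV ratio was 869, 139 and 106 in controls and 319, 323 and 63.5 in heat, with COX1 the largest of its 3 mitochondrial genes. For complexes I and IV heat 1 and heat 2 lay above control 2 and control 3. In complex III the ratio was 57.2, 13.3 and 10.7 in controls and 7.11, 6.25 and 1.69 in heat. There all heat libraries lay below all controls, and CYTB was the only mitochondrial gene. Complex V gave 36.0, 6.54 and 5.16 in controls and 5.44, 4.27 and 1.34 in heat. ATP6 and ATP8 overlap, so their reads are uncertain.

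**Figure D5:**
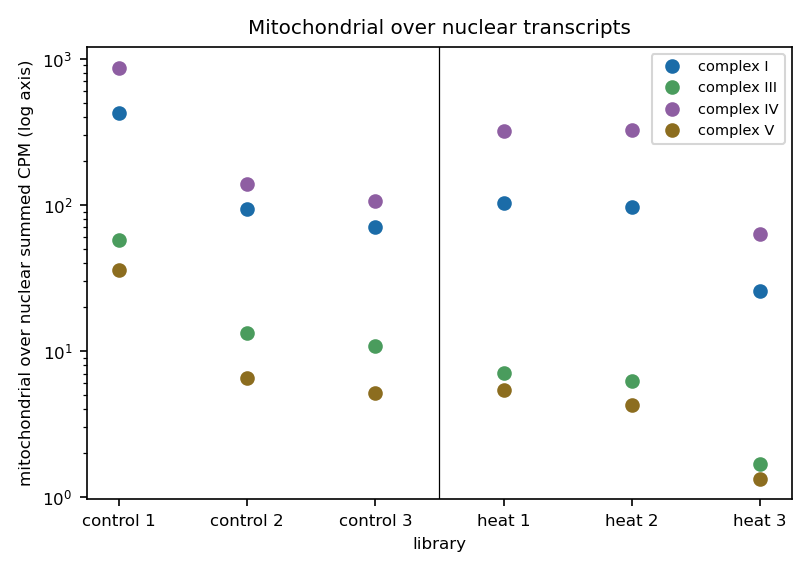
Summed CPM of mitochondrially encoded over nuclear-encoded subunits in each library, on a log axis, for the 4 complexes with subunits from both genomes. Control 1 is the highest and heat 3 the lowest library for every complex.

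Other nuclear subunits lay outside the member list. Of 32 listed, 25 were tested and 0 were called by edgeR, against 11% of all tested genes. None had an unadjusted p under 0.05, against 33.9% of all tested genes. Their median log2 fold change was -0.73, with 20 negative (background 47.9%). CYCS, the electron carrier cytochrome c, stood at 62.9, 187 and 191 CPM in controls and 32.2, 28.7 and 125 CPM in heat, and COX7A2L, which joins complexes III and IV, at 39.5, 105 and 103 CPM in controls and 21.4, 23.9 and 84.6 CPM in heat. Both had heat 3 between control 1 and the other controls. Of 8 alternative isoforms 3 were tested and 0 called by edgeR (1 at an unadjusted p under 0.05), against the same backgrounds, with a median of -0.26.

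Assembly factors, which build the complexes without staying in them, had 1 call among 43 tested of 47 listed. By edgeR 8 of the 43 had an unadjusted p under 0.05. The groups did not overlap for 10 of them (6 above, 4 below). Over all tested genes 11% were called, 33.9% had an unadjusted p under 0.05 and 37.8% did not overlap. The assembly factors' log2 fold changes ran from -2.02 to 1.65, with a median of -0.24. The called gene was TMEM70, a factor for ATP synthase assembly, which fell from 17.9, 34.4 and 32.0 CPM in controls to 6.08, 5.67 and 8.98 CPM in heat. All heat libraries lay below all controls, with heat 3 beside the other heat libraries. The difference was -2.02 ± 0.37 on the log2 scale, at an edgeR adjusted p of 0.0308. TMEM70 stayed called with control 1 or heat 3 left out. Leaving out any of the other 4 libraries ended the call, with edgeR adjusted p-values between 0.137 and 0.151.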

How the data were processed

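RNA was sequenced from 3 control and 3 heat libraries. Per the submitters' processing notes, FastQC 0.11.4, Trim Galore and STAR were used on Sscrofa11.1. Neither the counting tool nor the annotation release is named there. The deposited table holds the authors' raw read counts per Ensembl gene. Reads shared with processed copies of these genes may have been split. A normalized table was not used here.

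Genes were kept by filterByExpr (minimum count 10), leaving 14242. Heat was compared with control by edgeR 4.0.16 (R 4.3.3) with TMM factors, robust quasi-likelihood F test, two-sided, and Benjamini-Hochberg adjustment over all tested genes, called under 0.05. The SE is the absolute log2 fold change over the square root of F. CPM are TMM-scaled; log2 CPM use a prior count of 2. Alternatives were other scalings and filters, an adjusted p below 0.01, the replicate block, DESeq2 1.42.0, limma-voom (limma 3.58.1) and leaving out libraries. The test was checked on simulated data.

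Symbols came from a reference table for 15623 identifiers. Members and lists were chosen with earlier results of these data known. Named were fixed core subunits, each complex's highest and lowest fold change, any called member and, in other lists, up to 4 called genes or the 2 highest; other members named were chosen after their values were seen.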

Additional observations from a re-analysis of the deposited data

How the results depend on the processing

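With each library left out, members called lower ranged from 0 to 14, members called higher stayed at 0, and the median log2 fold change ranged from -1.31 to -0.39. With control 1 and heat 3 removed, added after seeing the data, 41 were lower and 1 higher. The count stayed at 0 in both directions with other scalings, other filters, DESeq2, limma-voom, an adjusted p below 0.01 and alike libraries summed. Library totals moved the median of all genes by 0.12 log2 units, and the members' median relative to it was -0.76, against -0.72 as reported. Over all genes 1571 were called, 60.9% of them higher; library totals gave 1999, 79.2% higher. No filter gave 2457, the 10 CPM filter 928, the replicate block 3404 and DESeq2 3910. Leaving out 1 library gave between 0 and 5530, removing control 1 and heat 3 gave 12142, and summing alike libraries gave 2.

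Whether libraries with the same replicate number share an animal or culture is not stated. Deviations of same-numbered libraries correlated at 0.30, -0.23 and 0.22, and not every library correlated best with its own number. Those values cannot settle whether the libraries were paired. With the replicate block 4 members were lower (NDUFA5, NDUFB6, UQCRB and ATP5PB), against 9.13% of genes lower.

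Of 44 members, 32 kept the sign of their fold change in all 16 other fits in which they were tested. The cause of the sign changes was not tested. With DESeq2 size factors in edgeR, CYC1 was at -0.0514 and ATP5MC1 at -0.0106, and with DESeq2 at -0.0514 and -0.0104. CYC1 was at -0.00087 with upper quartile factors, -0.020 with the replicate block and -0.031 with limma-voom. With library totals NDUFS3 was at 0.065 and ATP5F1A at 0.036, and with the 10 CPM filter at 0.045 and 0.0098. NDUFB8 was at 0.10 with the replicate block, 0.11 with limma-voom and 0.26 with alike libraries summed. In that last fit NDUFS3 was at 0.16, ATP5F1A at 0.23, ATP5MC3 at 0.14 and NDUFS6 at 0.11. Without control 1 and heat 3 NDUFV1 was at -0.13, CYC1 at -0.70, COX5A at -0.45, ATP5MC1 at -1.03, UQCRC1 at -0.30, ATP5F1D at -0.59, NDUFA10 at -0.060 and PDHA1 at -0.30. With each library left out, ranges that crossed 0 were -0.63 to 0.15 for ATP5F1A, -0.21 to 0.55 for ATP5F1D, -0.58 to 0.43 for ATP5MC1, -1.28 to 0.042 for ATP5MC3, -0.28 to 0.49 for COX5A, -0.44 to 0.27 for CYC1, -0.10 to 0.17 for NDUFA10, -0.97 to 0.061 for NDUFB8, -0.46 to 0.14 for NDUFS3, -0.62 to 0.089 for NDUFS6, -0.012 to 0.46 for NDUFV1, -0.41 to 0.35 for PDHA1 and -0.015 to 0.51 for UQCRC1.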

Other observations

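Genes that regulate mitochondrial biogenesis and transcription had 1 call among 24 tested of 25 listed, against 11% of all tested genes. By edgeR 10 of the 24 had an unadjusted p under 0.05, against 33.9% of all tested genes. These regulators went both ways: log2 fold changes ran from -1.36 (SSBP1) to 2.94 (PPARGC1B), with a median of -0.21. Heat lay above every control for 4 genes (background 20.9%) and below for 7 (background 16.8%). PPARGC1B was near the floor, at 0.334, 0.0437 and 0.149 CPM in controls and 1.15, 2.14 and 0.642 CPM in heat. PPRC1, a coactivator of the same family as PPARGC1B, was at 2.23 ± 0.61 (edgeR adjusted p = 0.0538). These 3 genes did not pass and were chosen after their values were seen. MTERF2, a mitochondrial transcription termination factor family member, fell from 8.61, 6.90 and 6.69 CPM in control 1, 2 and 3 to 2.84, 2.93 and 2.93 CPM in heat 1, 2 and 3. Every heat library lay below every control, and the log2 fold change was -1.35 ± 0.32 (edgeR adjusted p = 0.0413). It did not pass with library totals (0.0504) or with no filter (0.0579), nor without control 2, control 3, heat 1 or heat 2, with edgeR adjusted p-values between 0.154 and 0.175, and it was not tested at the 10 CPM filter.

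Of 18 genes of the tricarboxylic acid cycle and its entry enzyme, which feed complexes I and II, 0 were called, against 11% of all tested genes. By edgeR 3 had an unadjusted p under 0.05, against 33.9% of all tested genes, and the median log2 fold change was -0.15. PDHA1, a subunit of pyruvate dehydrogenase, stood at 240, 203 and 181 CPM in controls and 158, 158 and 376 CPM in heat. SUCLG2, a subunit of succinyl-CoA ligase, stood at 86.9, 155 and 147 CPM in controls and 34.2, 28.7 and 109 CPM in heat. For PDHA1 heat 3 was the highest library and the other heat libraries were the lowest.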
